A study of Homo sapiens with 6 samples.

Results

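The genes of cholesterol and fatty acid synthesis were followed in SaOS-2 cells with and without induced p21, the cyclin-dependent kinase inhibitor encoded by CDKN1A. The set was a list of 36 gene symbols that named 34 genes, since the older and newer symbols of 2 genes were both listed, and all 34 had a row among the 23228 genes of the table (SC4MOL is the older name of MSMO1, and SC5DL that of SC5D). Of these, 33 reached a mean normalized count of 10 over the 6 libraries and were thereby among the 13255 genes tested, while ABCG1 was not. SaOS-2 is an osteosarcoma line that lacks functional RB and p53, and the cells used carry p21 under a tetracycline-inducible promoter. The 3 p21 OFF libraries came from untreated cells and the 3 p21 ON libraries from cells given 1 µg/ml doxycycline for 24 h. All 6 came from the one engineered line, and no doxycycline-treated cells without the vector were analysed here, so that the drug and p21 cannot be told apart. Nothing in the labels says whether replicates were separate cultures, though the paper's RNA-seq methods speak of biological replicates. The p-values measure only the spread between these libraries.

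Cholesterol is built from acetyl-CoA through mevalonate, isoprenoid units and squalene, and fatty acids are built from the same acetyl-CoA by carboxylation, chain assembly, elongation and desaturation. Transcription of both sets of enzymes is driven by the sterol regulatory element binding proteins (SREBPs, encoded by SREBF1 and SREBF2), which SCAP escorts from the endoplasmic reticulum to the Golgi for cleavage unless INSIG proteins hold SCAP back when sterols are plentiful. Liver X receptors (LXRs) respond to oxysterols and raise genes of sterol efflux. A growing cell uses both products for its membranes.

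Sequencing depth ranged from 12795490 reads on genes (p21 OFF replicate 1) to 21975045 (p21 OFF replicate 3), and p21 ON libraries held 13440402, 12918390 and 16630552 reads. One library stood apart from its group. The squared difference of counts over sampling variance, averaged over genes, was 8.67 and 9.48 between p21 OFF replicate 1 and the other p21 OFF libraries but 3.04 between those 2, and 2.72 to 3.93 among the p21 ON libraries, where a value of 1 is expected from sampling alone. Replicate 1 of p21 OFF was also the highest of the 6 libraries in 15 of the 33 lipid genes and the lowest in 10, so that each count below is also given without it where that matters. The induction was seen in every library. CDKN1A read 1257, 1187 and 1355 normalized counts (read counts divided by each library's size factor) in p21 OFF and 40470.4, 43863 and 46739 in p21 ON, a 34.5-fold difference of means.

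The libraries carried osteoblast transcripts. ALPL, the alkaline phosphatase of bone, was the most abundant osteoblast marker, at 35363 to 38901 normalized counts, and RUNX2 (3028 to 3746), SP7 (5212 to 5874) and COL1A1 (6936 to 8533) were present in all 6 libraries, whereas BGLAP was listed at 0 throughout and SPP1 and COL1A2 stayed below 5. Of these markers and IBSP, only IBSP was called (lower, log2 fold change -0.38). Adipocyte and hepatocyte markers, which would mark cells with their own lipid programs, each summed to less than 4 normalized counts in every library, with ADIPOQ, CIDEC and TTR at 0. Of 3 fibroblast markers, LUM was lower (log2 fold change -0.29) and PDGFRA higher (0.27) in p21 ON. DCN was not called (0.02), with means of 32.4 in p21 OFF and 32.8 in p21 ON. The sum of the 3 markers, mostly LUM, was 10378 to 12224 in p21 OFF and 8702 to 10439.7 in p21 ON. The part of this in the lipid gene values was not tested.

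After p21 induction, the lipid genes moved little. ACACA and FADS1, enzymes of fatty acid synthesis and desaturation, were higher, and MVK, ACAT2, FDFT1, SQLE, NSDHL, EBP and INSIG1, 6 enzymes of sterol synthesis and a sterol-sensing regulator, were lower, while 24 of the 33 did not pass the test (limma on log2(normalized count + 1), Benjamini-Hochberg adjusted p under 0.05 over all 13255 genes). None of the 33 moved by more than 0.35 on the log2 scale, on which 1 stands for a doubling. The called members made up 6.06% (higher) and 21.2% (lower) of the 33, against 10.5% and 12.7% of all genes tested. At an unadjusted p under 0.05 the counts were 3 and 9, with 17.8% and 19.1% of all genes. The median log2 fold change of the members was -0.05, with quartiles of -0.16 and 0.04, beside 0.01, -0.14 and 0.17 over all genes tested, and 20 of 33 members had a negative value. In p21 ON all 3 libraries lay above all p21 OFF libraries for 3 members, ACACA, FADS1 and HSD17B7, and below for 10 members, beside 19.1% and 21.3% of all genes in these directions.

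**Figure D1:**
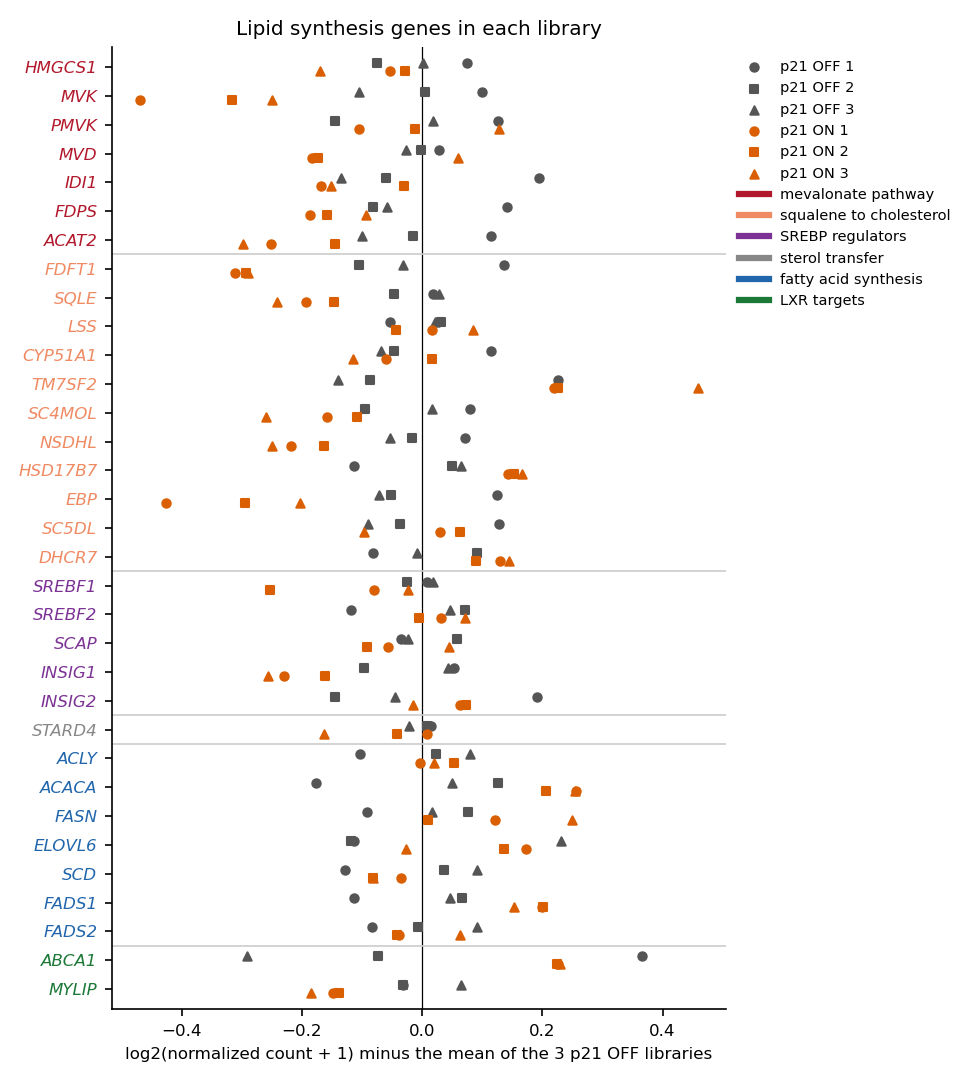
Each of the 33 tested lipid genes in each library, as log2(normalized count + 1) minus the mean of the 3 p21 OFF libraries, with p21 OFF in grey, p21 ON in orange, a marker shape per replicate and gene names coloured by role. For MVK, FDFT1 and EBP the 3 orange points lie left of all grey points, while for most other genes both colours overlap, and the grey circle (p21 OFF replicate 1) is often the outermost of its group.

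Of the called genes, MVK, FDFT1 and EBP kept their call in all 19 alternatives tried, among them each library left out in turn. The other 6 did not pass without p21 ON replicate 1, where adjusted p ranged from 0.0839 (INSIG1) to 0.138 (FADS1), nor without p21 ON replicate 3, where it ranged from 0.077 (FADS1) to 0.101 (ACAT2). In both cases the list held 0 higher and 3 lower members, while the share of all genes called fell to 5.24% higher and 6.69% lower without the first and to 5.58% and 8.13% without the second. Without p21 OFF replicate 1, the library that stood apart, 2 members were higher and 7 lower, with 10.4% and 12.2% of all genes. The lower 7 were the same genes, but of the higher pair only ACACA remained (log2 fold change 0.15), TM7SF2 joined it (0.41), and FADS1 had an adjusted p of 0.0697. SQLE (0.0638) and INSIG1 (0.0579) missed the threshold without p21 OFF replicate 3, NSDHL (0.0582) without p21 OFF replicate 2, and FADS1 (0.0981) without p21 ON replicate 2. SC4MOL was called lower without p21 OFF replicate 2 (log2 fold change -0.22).

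The mevalonate branch turns acetyl-CoA into farnesyl diphosphate, and 2 of its 7 genes in the set fell, with none higher and a median log2 fold change of -0.12, where 12.7% of all genes fell and 10.5% rose. MVK, mevalonate kinase, read 821, 769 and 713 in p21 OFF and 553, 615 and 644 in p21 ON, or 768 ± 54.4 and 604 ± 46.7 (mean ± SD, n = 3 each), so that the groups did not overlap. This was 21.3% below the p21 OFF mean, with a log2 fold change of -0.35 (SE 0.079, adjusted p = 0.0047). MVK lies at chr12:110011060-110035930 (GRCh37, plus strand) and shares 225 exonic bases with MMAB on the opposite strand.

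ACAT2, the cytosolic thiolase that joins acetyl-CoA units at the start of the branch, read 2384, 2180.2 and 2056 in p21 OFF and 1849.8, 1991 and 1790.3 in p21 ON. All p21 ON libraries were below all p21 OFF libraries, with means of 2206 ± 166 and 1877 ± 103 and a log2 fold change of -0.23 (SE 0.068, adjusted p = 0.0195). ACAT2 lies at chr6:160183077-160200144 (plus strand) and shares 454 exonic bases with TCP1 on the opposite strand. HMGCS1, the synthase of HMG-CoA and a classical SREBP target, read 3794, 3417 and 3603 in p21 OFF and 3470.3, 3531 and 3202 in p21 ON. Its groups overlapped (3605 ± 189 and 3401 ± 175). The log2 fold change of -0.08 (SE 0.062) had an adjusted p of 0.347 and a 95% interval of -0.21 to 0.05. With libraries left out this log2 fold change ranged from -0.12 to -0.04. PMVK and MVD, which act after MVK, and IDI1 and FDPS, which make and join the isoprenoid units, were not called, with log2 fold changes from -0.15 (FDPS) to 0.00 (PMVK). FDPS was at 3163 to 3374 in p21 ON and 3399.5 to 3971 in p21 OFF, without overlap, and its log2 fold change was -0.08 (adjusted p = 0.335) without p21 OFF replicate 1.

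From squalene synthesis to cholesterol, 4 of 11 genes fell and none rose, with a median of -0.05, beside the same 12.7% and 10.5% of all genes. Without p21 ON replicate 1, and likewise without p21 ON replicate 3, 2 of these 11 were lower (FDFT1 and EBP), while the share of all genes called lower fell to 6.69% and 8.13%. FDFT1, squalene synthase, the first enzyme committed to sterols, read 2430.2, 2057 and 2164 in p21 OFF and 1782, 1806 and 1809 in p21 ON, with no overlap. The means were 2217 ± 192 and 1799 ± 14.7, the log2 fold change -0.30 (SE 0.066) and the adjusted p 0.00395. SQLE, squalene epoxidase, a rate-limiting step, read 6069.7, 5804 and 6108 in p21 OFF and 5243, 5414 and 5067 in p21 ON. These groups (5994 ± 166 and 5241 ± 173) were also apart, with a log2 fold change of -0.19 (SE 0.057, adjusted p = 0.0205).

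NSDHL, a sterol dehydrogenase of C4 demethylation, read 1242, 1169 and 1139 in p21 OFF and 1016, 1056 and 995 in p21 ON. The p21 ON libraries were all lower (1183 ± 53.0 against 1023 ± 31.2), with a log2 fold change of -0.21 (SE 0.065, adjusted p = 0.0261). EBP, the sterol isomerase that moves the double bond of the ring, read 3368, 2982 and 2941 in p21 OFF and 2300.4, 2519 and 2683 in p21 ON. Its fall of 19.3% in the mean (3097 ± 236 to 2501 ± 192) corresponded to a log2 fold change of -0.31 (SE 0.070, adjusted p = 0.00447). Both genes are on the X chromosome, NSDHL at chrX:151999511-152038273 and EBP at chrX:48380187-48387104 (plus strand), and EBP shares 644 exonic bases with an annotated gene of the same strand, ENSG00000286268.

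The other 7 genes of sterol ring formation were not called. SC4MOL, the methyl oxidase that acts with NSDHL, was lower in all 3 p21 ON libraries (1144 to 1271 against 1282 to 1447) with a log2 fold change of -0.18 and an adjusted p of 0.0702. TM7SF2, a sterol reductase, went the other way at 0.30 (adjusted p = 0.0665), and its p21 ON values of 205, 206 and 242 overlapped p21 OFF values of 206, 166 and 159.7 through replicate 1. LSS, lanosterol synthase and the most highly counted gene of the branch, was at 9249 ± 295 and 9376 ± 420.3. CYP51A1, the lanosterol demethylase (-0.05), SC5DL, a desaturase (0.00), HSD17B7, a ketoreductase (0.15), and DHCR7, a last-step reductase (0.12), completed the set. CYP51A1 shares exons with 2 further annotated genes of its own strand. Such overlap may have affected its counts and those of EBP, which was not tested.

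Across the 18 genes of both branches, 6 fell, none rose, 13 had a negative value and the median log2 fold change was -0.11. That is 33.3% called lower, beside 12.7% lower, 10.5% higher and 48.9% negative over all genes tested. Only 3 of the 6 (MVK, FDFT1 and EBP) remained lower with library-size scaling, without p21 ON replicate 1 or without p21 ON replicate 3, settings in which 9.01%, 6.69% and 8.13% of all genes were lower. TM7SF2 was called higher without p21 OFF replicate 1, with library-size scaling and with the length trend taken out (adjusted p = 0.00621, 0.0383 and 0.0185). There, in this order, 10.4%, 15.3% and 10.1% of all genes were higher. The median of the 18 genes in each library, relative to the p21 OFF mean, was 0.11, -0.05 and -0.04 in p21 OFF and -0.16, -0.08 and -0.13 in p21 ON. The p21 ON libraries were thus all lower, but p21 ON replicate 2 was close to p21 OFF replicates 2 and 3, and p21 OFF replicate 1 was well above the rest.

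Promoter sequences are shown for 5 of the called genes, MVK, NSDHL, EBP, INSIG1 and ACACA, and for SREBF2, which has a match to the sterol regulatory element, the site that SREBPs bind. The stretches come from the 150 bases before the start of the Ensembl canonical transcript in the GRCh37 genome, 5′ to 3′ on the gene's strand, limited to bases outside exons of protein-coding genes. In ACAT2 and FADS1 such exons fill these bases, and FDFT1 and SQLE are not shown here. Capitals mark matches on either strand to TCACNCCAC (sterol regulatory element) and CCAAT (NF-Y box, read as ATTGG on the other strand), and in NSDHL a pair of CCAAT matches on opposite strands overlap. MVK is from chr12:110011449-110011597 (plus), NSDHL from chrX:151999457-151999510 (plus), EBP from chrX:48380046-48380186 (plus), INSIG1 from chr7:155089438-155089485 (plus), ACACA from chr17:35766928-35766976 (minus), and SREBF2 from chr22:42228959-42229108 (plus).
MVK: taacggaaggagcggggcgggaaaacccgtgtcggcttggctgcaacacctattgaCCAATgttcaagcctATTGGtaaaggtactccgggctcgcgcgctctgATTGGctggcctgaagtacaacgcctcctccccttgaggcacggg
NSDHL: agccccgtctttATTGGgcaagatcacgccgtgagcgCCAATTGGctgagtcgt
EBP: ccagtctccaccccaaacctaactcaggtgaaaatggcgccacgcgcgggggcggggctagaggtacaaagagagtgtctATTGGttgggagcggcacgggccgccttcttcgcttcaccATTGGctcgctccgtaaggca
INSIG1: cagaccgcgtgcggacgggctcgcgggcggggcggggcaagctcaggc
ACACA: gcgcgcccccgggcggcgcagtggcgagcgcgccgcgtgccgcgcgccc
SREBF2: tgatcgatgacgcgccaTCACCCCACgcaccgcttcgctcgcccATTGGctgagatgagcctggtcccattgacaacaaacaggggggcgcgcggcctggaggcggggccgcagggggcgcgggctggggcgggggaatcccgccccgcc

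Within 250 bases upstream, TCACNCCAC occurred in 2 of 34 members (5.88%), SREBF2 among them, against 0.966% of 19874 promoters of protein-coding genes, and neither of these members was called. CCAAT occurred in 23 members (67.6%) against 34.3%, among them 6 of the 7 genes called lower (all but ACAT2) and neither of the 2 called higher. In MVK it was found at 5 places, 3 of them within the stretch shown. Members that were not called had CCAAT as well, among them HMGCS1, MVD, IDI1, FDPS, LSS, SC4MOL, DHCR7, FASN and SCD. So did TM7SF2, whose log2 fold change was positive. The E-box CACGTG was found in 4 members (11.8% against 7.87%), SC5DL, SCAP, INSIG1 and ABCA1. The GC box GGGCGG, to which the SP1 family binds, was in 33 members (97.1% against 59.1%). The CHR element of cell cycle genes occurred as TTTGAA in TM7SF2 and ELOVL6 (5.88% against 10.1%) and as TTCGAA in no member (against 1.33%). These are matches of letters on either strand, not sites shown to be bound.

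Of the 5 genes for SREBPs and their regulators, only INSIG1 was called, as lower, where 12.7% of all genes were lower and 10.5% higher. None of the 5 was called without p21 OFF replicate 3, p21 ON replicate 1 or replicate 3 of p21 ON, nor with library-size scaling. In these settings, in this order, 12.5%, 6.69%, 8.13% and 9.01% of all genes were lower and 11.2%, 5.24%, 5.58% and 15.3% higher. INSIG1, whose product retains SCAP in the endoplasmic reticulum, is itself an SREBP target. It read 2881, 2596 and 2861 in p21 OFF and 2367, 2482 and 2322 in p21 ON. There was no overlap (2779 ± 159 and 2390.4 ± 82.4), and the log2 fold change was -0.22 (SE 0.062, adjusted p = 0.0178). INSIG1 lies at chr7:155089486-155101945 (plus strand). SREBF1, whose products favour fatty acid genes, read 2818, 2756 and 2838 in p21 OFF and 2653, 2353 and 2758 in p21 ON. Replicate 2 of p21 ON was the lowest, p21 ON replicate 3 lay within p21 OFF values, and the log2 fold change of -0.12 (SE 0.065) had an adjusted p of 0.195. Without p21 ON replicate 2 it was -0.05. With the trend over GC content taken out SREBF1 was called lower (-0.18, adjusted p = 0.0301), which made 8 members lower, while 14.7% of all genes were lower and 11.9% higher in that setting. SREBF2, whose product favours sterol genes, read 5165, 5891 and 5785 in p21 OFF and 5729.9, 5585 and 5887 in p21 ON, with full overlap and a log2 fold change of 0.03 (SE 0.062, adjusted p = 0.738). SREBP activity depends on cleavage of the protein, which transcript counts do not show. SCAP (-0.03), INSIG2 (0.04) and the sterol transfer protein STARD4 (-0.07) were not called.

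In fatty acid synthesis, 2 of 7 genes rose and none fell, with a median log2 fold change of 0.09, where 10.5% of all genes rose. Neither gene was called with the trend over gene length taken out (adjusted p = 0.0987 for ACACA and 0.137 for FADS1). The same held without p21 ON replicate 1 (0.0918 and 0.138) and without p21 ON replicate 3 (0.0859 and 0.077). Each setting leaves 0 of 7, where 10.1%, 5.24% and 5.58% of all genes, in this order, were called higher. The median of the 7 genes in each library, relative to the p21 OFF mean, was -0.11, 0.04 and 0.08 in p21 OFF. In p21 ON this median was 0.12, 0.05 and 0.06, so that the groups overlapped, with p21 OFF replicate 1 well below the rest. ACACA, acetyl-CoA carboxylase, which makes malonyl-CoA and sets the pace of the pathway, read 2323, 2865 and 2717 in p21 OFF and 3135, 3029 and 3131 in p21 ON. All p21 ON libraries were higher, with means of 2635 ± 280.0 and 3098 ± 60.1 and a log2 fold change of 0.24 (SE 0.071, adjusted p = 0.021). The low value of p21 OFF replicate 1 set much of the distance, and without it the log2 fold change was 0.15 (adjusted p = 0.0395). FADS1, the delta-5 desaturase of polyunsaturated fatty acids, read 3882, 4396 and 4339 in p21 OFF and 4819.6, 4830.0 and 4669.5 in p21 ON. These did not overlap (4206 ± 282 and 4773 ± 89.8), with a log2 fold change of 0.18 (SE 0.061, adjusted p = 0.0374), which fell to 0.13 (adjusted p = 0.0697) without p21 OFF replicate 1. ACACA lies at chr17:35441927-35766927 and FADS1 at chr11:61567099-61596790, both on the minus strand, and FADS1 shares 490 exonic bases with FADS2 on the opposite strand.

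FASN, fatty acid synthase, had the highest counts of the set, at 15849, 17804 and 17079 in p21 OFF and 18378, 17001 and 20084 in p21 ON. The groups overlapped through p21 ON replicate 2 (16911 ± 988 and 18488 ± 1545), and the log2 fold change of 0.13 (SE 0.069) had an adjusted p of 0.196. With libraries left out this log2 fold change ranged from 0.07 to 0.19. SCD, the stearoyl-CoA desaturase that makes oleate, read 10369.9, 11616 and 12076 in p21 OFF and 11057, 10708 and 10704 in p21 ON. The p21 ON values lay inside the p21 OFF range, with a log2 fold change of -0.07 (SE 0.064, adjusted p = 0.48). It ranged from -0.13 to -0.02 with libraries left out. ACLY, which supplies cytosolic acetyl-CoA to both pathways, was at 0.02, the elongase ELOVL6 at 0.09 and the delta-6 desaturase FADS2 at -0.01, none of them called.

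Of the LXR targets, none was called. ABCA1, a cholesterol efflux pump, was scarce at 56.5, 41.4 and 35.5 in p21 OFF and 51.2, 51.2 and 51.3 in p21 ON. Its log2 fold change was 0.23 (SE 0.188, adjusted p = 0.405) and ranged from 0.08 to 0.41 with libraries left out. The p21 ON libraries were nearly equal and lay within the p21 OFF range. MYLIP, a ubiquitin ligase for lipoprotein receptors, was lower in all 3 p21 ON libraries (210.0 to 217 against 234 to 249.8) with a log2 fold change of -0.16 (adjusted p = 0.224). ABCG1, a second efflux pump, was at 0.781 to 2.22 in p21 OFF and 1.22 to 2.85 in p21 ON, 1 to 3 reads in a library, too few to compare.

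**Figure D2:**
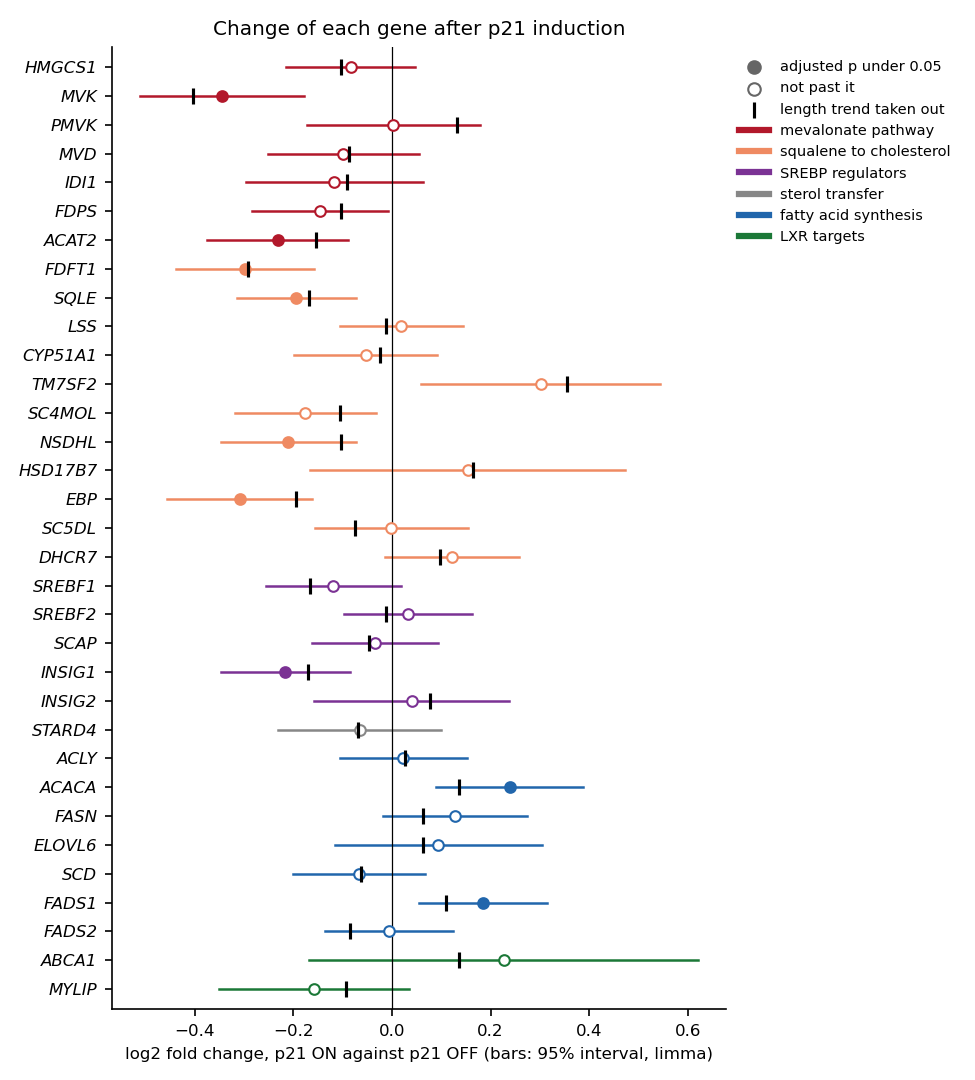
Log2 fold change (p21 ON against p21 OFF) of each tested lipid gene with its 95% interval from limma, with filled points for called genes, open points for the others, colours for roles and black ticks for the value with the length trend taken out. The intervals of the 7 genes called lower lie below 0 and reach down to -0.51 for MVK, and those of ACACA and FADS1 lie above 0.

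Transcript levels differed far more between genes than between conditions. Per kilobase of canonical transcript in p21 OFF, the highest levels were those of FADS2 (2765 normalized counts per kb), EBP (2753), FDPS (2547), ACLY (2362), SCD (2165), SQLE (2024) and FASN (1998), whose order is not settled where neighbours differ by less than their SD, such as 168 for FADS2 and 210.0 for EBP. SREBF2 (1072) stood above SREBF1 (572), and INSIG1 (956) above INSIG2 (92.1). The lowest tested genes were HSD17B7 (36.6) and ABCA1 (4.27), and ABCG1 stood at 0.477. In p21 ON, FADS2 was at 2753, ACLY at 2397, FDPS at 2297 and EBP at 2223, and FDPS and EBP differed by less than their SDs (76.6 and 171).

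**Figure D3:**
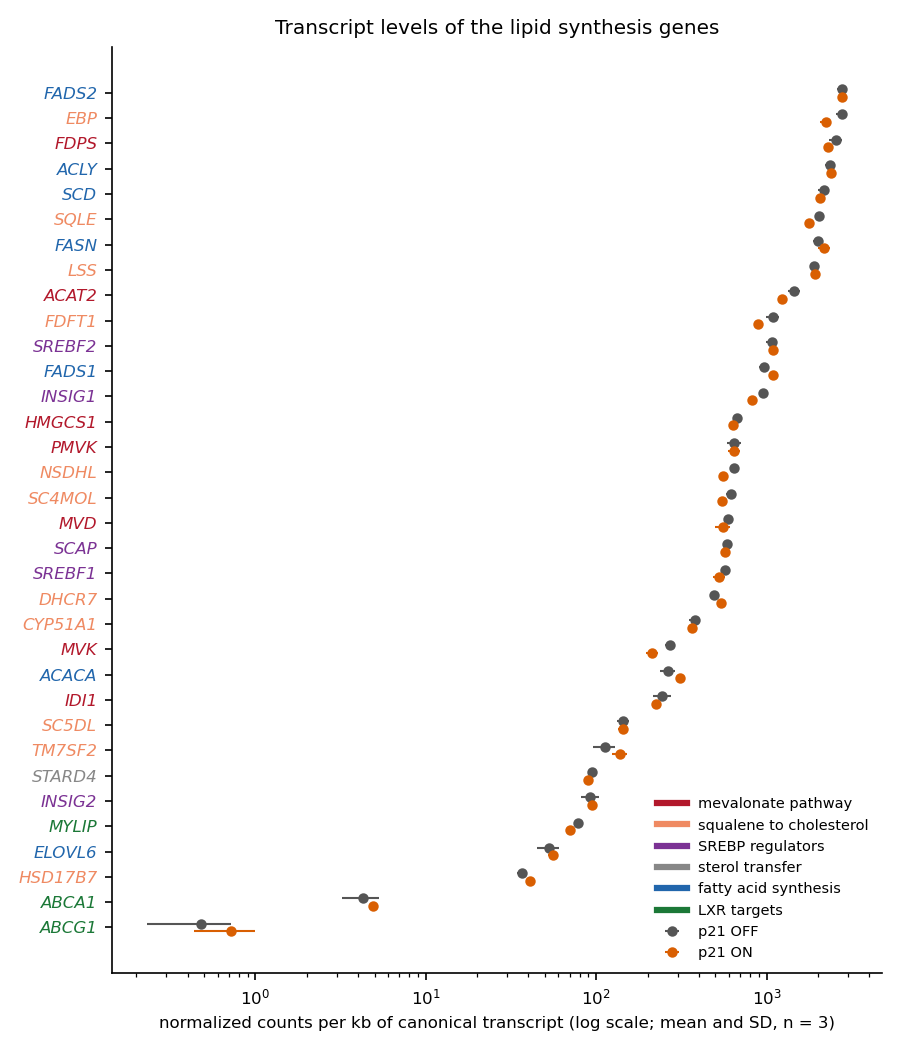
Normalized counts per kilobase of canonical transcript on a log axis for the 34 lipid genes, as mean and SD of 3 libraries, p21 OFF in grey and p21 ON in orange, ordered by the p21 OFF level with names coloured by role. Levels run from 0.477 for ABCG1 to 2765 for FADS2, while the points of both groups lie close together for each gene.

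Gene length moved with the changes. Over 12591 tested genes with an annotated length, the log2 fold change and the exonic length had a Spearman correlation of 0.281, and over the 33 members one of 0.492, given as a description since genes of the same libraries are not independent. The exonic length counts bases in any annotated exon of a gene, so that it can exceed the length of a single transcript. The called genes that rose had large exonic lengths (13016 bases for ACACA and 10228 for FADS1). Of those that fell EBP had 1768 and NSDHL 1996 bases, although MVK had 9018. The canonical transcripts had 10007 bases for ACACA, 4364 for FADS1, 1125 for EBP, 1833 for NSDHL and 2833 for MVK. A trend over canonical transcript length was not tested. With the trend over length taken out of every library, ACACA (0.14, adjusted p = 0.0987) and FADS1 (0.11, 0.137) were no longer called, nor were ACAT2 (-0.15, 0.0579) and NSDHL (-0.10, 0.184). MVK (-0.40), FDFT1 (-0.29), EBP (-0.19), SQLE (-0.17) and INSIG1 (-0.17) stayed lower, and TM7SF2 (0.35, adjusted p = 0.0185) was called higher. That left 1 member higher and 5 lower, with 10.1% and 13.4% of all genes called in these directions.

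**Figure D4:**
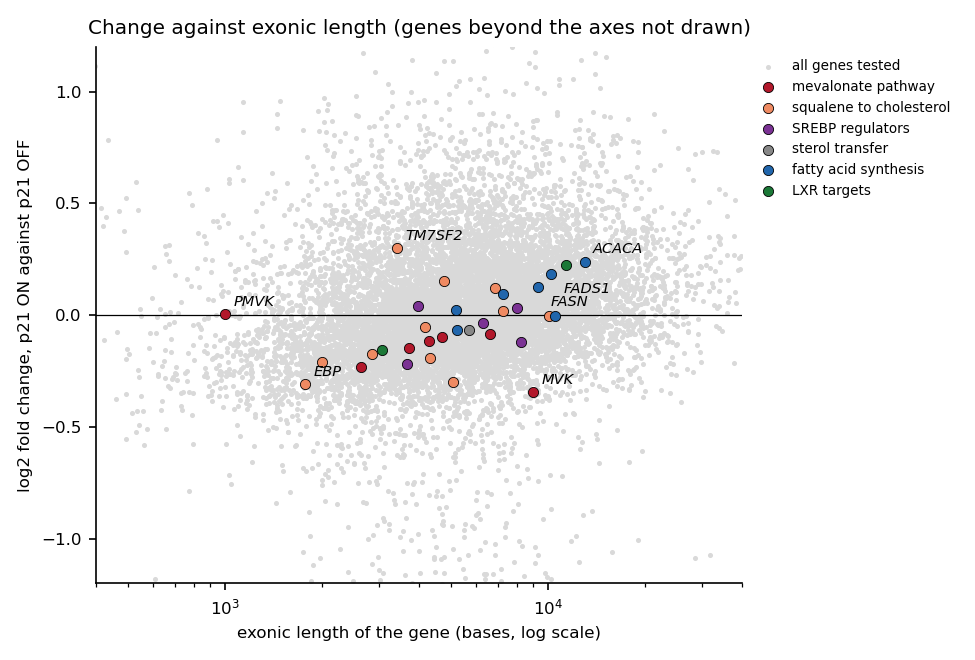
Log2 fold change (p21 ON against p21 OFF) against exonic length in bases on a log axis, with all tested genes in grey and the lipid genes coloured by role. ACACA, of large exonic length, lies above 0 and EBP, of small exonic length, below, but several members depart from this trend. Among these, MVK, SREBF1 and FADS2 have large exonic lengths and are not above 0, and TM7SF2 has a smaller one and is above 0.

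Scaling bore on the calls as well. With library size alone as the scaling, the median log2 fold change of all genes shifted to 0.05, 15.3% of genes were called higher and 9.01% lower, and 3 members remained lower (MVK, FDFT1 and EBP), while ACACA and FADS1 stayed higher and TM7SF2 joined them (0.35, adjusted p = 0.0383).

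Of 38 other genes of the same pathways that were listed, 34 were tested, and 4 were higher and 4 lower (11.8% each, near the 10.5% and 12.7% of all genes), and the median log2 fold change was -0.03. LBR, a lamin B receptor that is also a sterol reductase and shares the step of TM7SF2, fell from 3464, 3484 and 3408 to 2560.0, 2659 and 2421, a log2 fold change of -0.44 (SE 0.059, adjusted p = 3.27e-05) with no overlap. NPC2, which carries cholesterol out of lysosomes, fell by 0.36 on the log2 scale, RNF139, a ubiquitin ligase of the endoplasmic reticulum, by 0.23, and ELOVL1, an elongase of saturated very long chains, by 0.27. ACACB, the mitochondrial acetyl-CoA carboxylase whose product restrains fatty acid oxidation, rose from 252, 300.0 and 338 to 473, 469 and 476, a log2 fold change of 0.68 (SE 0.097, adjusted p = 6.62e-05). ELOVL7, an elongase, rose by 0.76, ACSS2, which makes acetyl-CoA from acetate, by 0.23, and NR1H3, which encodes LXR alpha, by 0.45.

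By role, 2 of 7 further sterol and isoprenoid genes were lower (LBR and NPC2), 1 of 5 genes of SREBP processing and turnover was lower (RNF139), 1 of 2 LXR genes was higher (NR1H3), and of 20 tested fatty acid genes 3 were higher and 1 lower. With so few genes a role, and 10.5% of all genes called higher and 12.7% lower, these counts only describe the lists. The proteases MBTPS1 (-0.05) and MBTPS2 (-0.02), which release SREBPs from the membrane, were not called. LBR, NPC2, ACACB and ELOVL7 kept their call in all 19 alternatives. NR1H3, at 46.5 to 53.1 in p21 OFF and 64.0 to 77.0 in p21 ON, missed the threshold with each library left out (adjusted p up to 0.17), and ACSS2, ELOVL1 and RNF139 each missed it without p21 OFF replicate 2 (0.0767, 0.0759 and 0.0657) and without p21 ON replicate 1 (0.0687, 0.184 and 0.19). ACSS2 also missed it without p21 ON replicate 2 (0.0623), ELOVL1 without p21 ON replicate 3 (0.0768) and RNF139 when replicate 3 of p21 OFF (0.0912) was left out and when that of p21 ON (0.19) was. NR1H3 was also lost with DESeq2 (0.136), TMM scaling (0.0515), no filter (0.0971) and the replicate block (0.0541). RNF139 was lost with DESeq2 (0.0586), library-size scaling (0.0939) and the length (0.101) or GC trend (0.0556) taken out, and ELOVL1 with library-size scaling (0.0613) and the length trend out (0.0706). ELOVL2, ELOVL3, MLXIPL and THRSP, the last 2 known from liver and fat, did not reach the count filter.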

How the data were processed

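RNA-seq of SaOS-2 cells was compared between 3 p21 ON and 3 p21 OFF libraries. Per the study's methods, the authors made stranded polyA libraries, mapped single-end reads to hg19 with STAR, counted genes with HTSeq and normalized with DESeq2; the strand setting of the counting and the tool versions were not given in the sources used here. The deposited table holds these normalized counts (signal: reads divided by a size factor of 0.796 to 1.35). In each library 100% of values were whole multiples of 1 read within 0.1 read, so whole reads were recovered for the count tests.

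The 13255 genes whose normalized count averaged 10 or more over the libraries were tested with limma 3.58.1 in R 4.3.3 (lmFit, eBayes with trend) on log2(normalized count + 1), with Benjamini-Hochberg adjustment over all of them and a threshold of 0.05. Fold changes on this scale understate the change of low genes. With 3 libraries a group, a two-sided exact permutation test of one gene cannot go below 0.1, and none was used. Bulk libraries cannot tell a change in the number of cells of a kind from less RNA per cell. Alternatives were edgeR 4.0.16 and DESeq2 1.42.0 on recovered reads, library-size and TMM scaling, pseudocounts of 0.1 and 10, no filter or at least 10 reads in every library, a threshold of 0.01, a replicate block, each library left out, and loess trends (span 0.3) over length or GC content taken out. Scripts were tested on simulated data with the same dispersion (0.00355) for all genes. There, 25.4% of genes changed by 0.25 on the log2 scale were called, and 88.1% of those changed by 0.5. A member that was not called is therefore not shown to be unchanged.

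Members and lists were chosen with earlier results of these data known. By the rule set for naming, every member is named, with values per library for called members and for HMGCS1, INSIG1, SREBF1, SREBF2, FASN and SCD, and of the other pathway genes those called; other genes shown with values were picked after these were seen. Positions, lengths and GC content came from GENCODE 44 lifted to GRCh37, which matched 20979 of 23228 rows, 2051 of them by older symbols; promoters came from the GRCh37 genome. Not tested for reads shared with copies were FDPS, IDI1, CYP51A1, HSD17B7 and SCD, for which GENCODE lists 8, 3, 3, 1 and 1 pseudogenes, none with a row in the table. A marker gene and a promoter stretch are not reported here.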

Additional observations from a re-analysis of the deposited data

How the results depend on the processing

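Across alternatives other than left-out libraries, single genes kept direction and side of the threshold in 501 cases, were weaker in 31, stronger in 3 and reversed in 11; with a library left out these were 204, 33, 2 and 13. At an adjusted p under 0.01, 616 genes were higher and 882 lower, with 0 members higher and 3 lower and 2 other pathway genes each way. With libraries left out in turn, all genes called ranged from 695 to 1486 higher and 887 to 1660 lower, members from 0 to 2 and 3 to 7, and other pathway genes from 2 to 4 and 2 to 6. ACACA was the only member higher with no filter and under the replicate block, and TM7SF2 the only one with the length trend out. In these settings, in this order, 6.91%, 10.6% and 10.1% of all genes were higher. Scaling by library size alone left 3 members and 2 other pathway genes lower, gave 2034 genes higher and 1194 lower, and moved the members' median to -0.0092; the cause was not tested. With edgeR, 2 members were higher and 7 lower under both normalizations, as with DESeq2, beside 10.6% of all genes higher and 12.4% (TMM) or 12.6% (size factors) lower with edgeR and 8.96% and 11.4% with DESeq2.

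The sign turned for members near 0, none of them called. PMVK was at -0.0066 with TMM scaling, -0.040 with the GC trend out and, with libraries left out, between -0.069 and 0.067. LSS was at -0.011 and SREBF2 at -0.012 with the length trend out, and with libraries left out they ranged from -0.014 to 0.051 and from -0.026 to 0.069. SC5DL was at 0.0013 and 0.00050 with edgeR (TMM and DESeq2 size factors), 0.0055 with DESeq2, 0.042 with library-size scaling, 0.046 with the GC trend out and between -0.047 and 0.063 with libraries left out. Library-size scaling put SCAP at 0.0094 and FADS2 at 0.038. With libraries left out, CYP51A1 ranged from -0.088 to 0.0044, INSIG2 from -0.033 to 0.14, FADS2 from -0.048 to 0.040 and ACLY from -0.028 to 0.063.

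Same-numbered libraries of the 2 groups did not deviate together (correlations -0.172, -0.165 and -0.123 over 10442 genes). Between libraries of different numbers the correlations were 0.001 to 0.128. Deviations were taken from the mean of the 3 libraries of a group, which ties these correlations to each other. They therefore cannot decide whether the numbers pair the libraries. With the replicate block, 1407 genes were higher and 1513 lower, and 1 member was higher and 6 lower (FADS1 and NSDHL missed the threshold). At 12795490 to 21975045 reads a library, ABCG1 had 1 to 3 reads and could not be compared.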
